A study of Mus musculus with 20 samples.

Results

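Growing oocytes (GO) without Chd4 were set against non-growing oocytes (NGO) of the same genotype at postnatal day 10 (P10), to ask which parts of the oocyte growth programme still took place. Genes were included by level alone, at 1 or more TPM (a share of a library, scaled by gene length to a fixed total) in at least 2 of the 4 knockout libraries. This gave 12893 of the 53722 genes in the oocyte table, and 20470 genes entered the tests. Of the 12893, 10764 reached that level in both kinds of oocyte, 1561 through GO alone and 568 through NGO alone. A gene in either of the last sets had to differ between GO and NGO to some degree, so counts over all 12893 only describe them.

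A mouse oocyte rests in a primordial follicle until it is recruited to grow. During growth it enlarges, secretes the zona pellucida, signals to its granulosa cells and stores the maternal RNA and protein that carry the egg and early embryo until the embryonic genome is switched on. CHD4 is the ATPase of the nucleosome remodelling and deacetylase (NuRD) complex, which moves nucleosomes and is best known for holding genes silent.

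Each group had 2 libraries, and the labels do not say whether these were separate animals, so p-values measure the spread between libraries. The knockout GO and knockout NGO (GcKO) were Chd4 f/f with 1 copy of Gdf9-iCre, a Cre driven from an oocyte gene. The control GO and control NGO (Gctrl) were Chd4 f/f without Cre, so the effect of Cre itself and that of the knockout cannot be told apart. All came from ovaries on day 10 in mice of mixed C57BL/6, 129S1/Sv and FVB/NJ background. The remaining 8 oocyte libraries were NGO of P1 and P5, controls labelled Dctrl and knockouts labelled DcKO rather than Gctrl and GcKO. They entered only the choice of genes tested and the estimate of spread. With the P10 libraries alone, 15197 genes were tested. How GO and NGO were separated, and how many oocytes or animals were pooled, is not given in the sources used here.

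Recovered depth was 15.37 to 18.98 M reads in knockout GO and 23.69 to 26.95 M reads in knockout NGO, against 19.56 to 20.52 M reads in control GO and 19.68 to 22.69 M reads in control NGO. Between 11980 and 13517 genes reached 1 TPM in knockout GO, and between 10003 and 11820 in knockout NGO. Across genes, Pearson r of the log2 values between replicates was 0.891 in knockout GO and 0.915 in knockout NGO, and between a GO and an NGO knockout library 0.756 to 0.807. Chd4 (ENSMUSG00000063870.12, GRCm38 chromosome 6, 125095981 to 125130591), read over the whole gene, was at 0.631 and 1.54 TPM in knockout GO and 1.34 and 0.247 TPM in knockout NGO, against 1.56 and 2.96 TPM in control GO and 1.63 and 1.85 TPM in control NGO. The GO and NGO knockout libraries overlapped, and the level did not differ by the test between knockout and control GO (adjusted p = 0.488) or NGO (adjusted p = 0.615), so it does not check the labels. The labels used here do not say which exons are floxed. The 10 oocyte markers, such as Dppa3, Zp3 and Gdf9, all reached 1 TPM in at least 2 of the knockout libraries. Summed TPM of 23 granulosa and supporting cell markers was 74.9 and 95.8 in knockout GO, against 51.9 and 48.7 in knockout NGO, with Amhr2, Fshr, Inhbb and Nr5a1 at 0 in all 4 libraries. The sum of 18 stromal and theca markers was 29.5 and 19.8 in GO and 23 in each NGO library. For 11 endothelial markers it was 105.9 and 4.22 in GO, against 4.67 and 10.0 in NGO, of which Pecam1 alone gave 98.6 TPM in knockout GO replicate 1, while Cdh5, Emcn, Eng and Esam were at 0. The sum of 17 blood markers was at most 4.89 in any of the 4 libraries. Other markers did reach 1 TPM in at least 2 of the 4 knockout libraries. Among granulosa and supporting cell markers these were Kitl, Wt1, Fst, Krt8, Krt18, Krt19, Serpine2, Gatm and Nr0b1. Among stromal and theca markers they were Nr2f2, Hsd3b1 and Ptch1, and among endothelial markers Pecam1, Tek, Tie1 and Egfl7. No blood marker did. Of all these markers, Krt8, Krt19 and Tie1 passed the test as higher in GO and Nr0b1 as lower, and each of these calls was lost when at least 1 knockout library was left out. The part of such cells in the results was not tested.

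Knockout oocytes changed widely between the resting and the growing state. On log2(TPM + 1) values, limma called 4180 genes (20.4% of 20470) at an adjusted p under 0.05. Of these, 2354 (11.5%) were higher in knockout GO and 1826 (8.92%) lower. Among the 10764 genes that reached 1 TPM in both kinds of knockout oocyte, 1046 were higher and 1478 lower. The GO libraries lay wholly above the NGO libraries for 26.2% of genes tested and wholly below for 23.2%. TPM is a share of each library, so more RNA of one gene and less of the others in a cell, and more or fewer cells of one kind, cannot be told apart. The falls rested in part on 1 library: without knockout GO replicate 2, 1103 genes were lower and 2182 higher. The share of higher calls was 56.3%, and which direction prevailed depends on scaling: it was 46.6% with quantile normalization, 63.1% with median-of-ratios scaling and 67.2% by voom on recovered reads. It was 49.5% without knockout NGO replicate 2 and 71.9% with the 4 knockout libraries alone.

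The 12 largest rises were in genes at 115 TPM or more in both GO libraries, against 17.2 TPM or less in both NGO libraries. Rgn, which encodes the calcium-binding enzyme regucalcin (X chromosome, 20549787 to 20562089), had 344 and 409 TPM in knockout GO, against 0.792 and 0.771 TPM in knockout NGO, a log2 fold change of 7.72 ± 0.47 (limma standard error; adjusted p = 2.54e-06). Aadac, an esterase of the endoplasmic reticulum (chromosome 3, 60025717 to 60040160), had 858 and 930.5 TPM in GO and 3.74 and 4.54 TPM in NGO (7.45 ± 0.47, adjusted p = 2.54e-06). Pabpn1l, a poly(A)-binding protein of oocytes and early embryos, had 242 and 349 TPM in GO and 1.33 and 0.934 TPM in NGO (7.10 ± 0.85). These 3 genes were close to silent at rest and among the better expressed in growth. Oog3, an oogenesin of the oocyte, had 619 and 774 TPM in GO and 7.33 and 5.25 TPM in NGO (6.59 ± 0.45). Oosp1, a protein secreted by the oocyte, had 207 and 231 TPM in GO and 1.42 and 1.78 TPM in NGO (6.40 ± 0.38). Nlrp9a, of the oocyte NLRP family, had 147 and 336 TPM in GO and 0.822 and 1.99 TPM in NGO (6.58 ± 0.86). The replicates of Nlrp9a lay further apart than those of the other genes, yet did not bridge the gap. Tcstv3, a gene known from the two-cell embryo, had 205 and 203 TPM in GO and 1.09 and 1.43 TPM in NGO (6.51 ± 0.44), and Mgat4d, which in mouse testis inhibits an N-glycan enzyme, had 122 and 154 TPM in GO and 0.551 and 0.41 TPM in NGO (6.55 ± 0.57). The others were Fbxw20, Fbxw28, Fbxw13 and Usp17lb. Rgn, Mgat4d and Usp17lb were below 1 TPM in both knockout NGO libraries. They thus passed the filter through GO alone and had to be higher in GO to some degree.

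**Figure D1:**
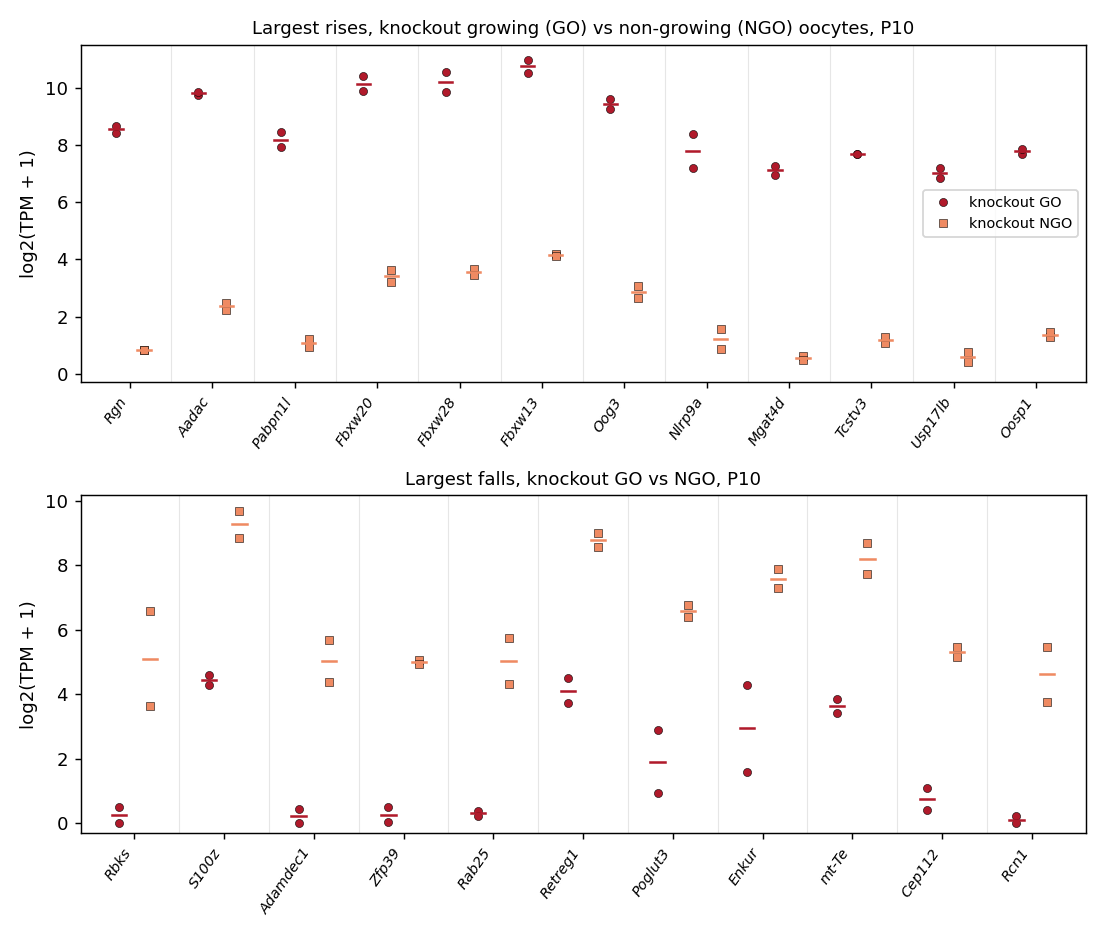
Log2(TPM + 1) of the 12 genes with the largest rises (upper panel) and of genes among the 12 largest falls (lower panel) between knockout GO (red circles, left of each pair) and knockout NGO (orange squares), with 1 point per library and a bar at the mean of 2. In every gene shown both GO libraries lie on one side of both NGO libraries, with log2 fold changes of 6.40 to 7.72 among the rises and -4.86 to -4.50 among the falls.

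The F-box and WD-repeat genes of the Fbxw cluster, expressed in the mouse oocyte, rose together. The 12 listed genes lie on chromosome 9 between 109139447 and 109746089, within 606.6 kb, and all 12 rose. Fbxw13 had 1471 and 2023 TPM in knockout GO and 17.2 and 16.5 TPM in knockout NGO (6.60 ± 0.36, adjusted p = 2.02e-06). Fbxw20 had 943 and 1354 TPM in GO and 8.21 and 11.5 TPM in NGO (6.72 ± 0.67), and Fbxw28 had 927 and 1506 TPM in GO and 11.6 and 9.97 TPM in NGO (6.65 ± 0.55). Fbxw24 was the most abundant of them, with 14255 and 19022 TPM in GO and 826 and 570.1 TPM in NGO, and a log2 fold change of 4.58 ± 0.33. It was thus already well expressed at rest. The rises of Fbxw16 and Fbxw24 did not pass by voom on recovered reads. These genes are near copies of each other, so the split of reads between them is uncertain. The 250 bases before the RefSeq start of Fbxw20 (chr9:109234755-109235004, minus strand, GRCm38.p6) and of Fbxw28 (chr9:109339660-109339909, minus strand) are shown beside those of Zp3 (chr5:135979855-135980104, plus strand), a zona gene that rose less, and Usp17lb (chr7:104842584-104842833, minus strand), which rose in knockouts only. Capitals mark CANNTG, the E-box of helix-loop-helix factors such as the oocyte factor FIGLA, which reads the same on both strands and was counted with overlaps.
Fbxw20: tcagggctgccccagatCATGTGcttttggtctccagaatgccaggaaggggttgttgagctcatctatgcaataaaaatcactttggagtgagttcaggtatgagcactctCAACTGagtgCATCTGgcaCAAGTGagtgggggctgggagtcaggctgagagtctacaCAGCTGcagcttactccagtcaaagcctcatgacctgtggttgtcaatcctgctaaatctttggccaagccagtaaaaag
Fbxw28: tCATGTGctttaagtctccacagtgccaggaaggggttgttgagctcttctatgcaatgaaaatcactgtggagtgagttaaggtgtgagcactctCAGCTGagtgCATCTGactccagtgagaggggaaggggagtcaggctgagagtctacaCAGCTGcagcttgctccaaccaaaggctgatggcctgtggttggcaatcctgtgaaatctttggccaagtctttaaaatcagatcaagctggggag
Zp3: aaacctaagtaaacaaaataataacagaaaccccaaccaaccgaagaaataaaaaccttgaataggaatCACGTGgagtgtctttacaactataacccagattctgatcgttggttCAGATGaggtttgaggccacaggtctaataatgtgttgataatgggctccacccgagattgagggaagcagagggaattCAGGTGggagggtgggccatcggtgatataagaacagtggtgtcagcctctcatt
Usp17lb: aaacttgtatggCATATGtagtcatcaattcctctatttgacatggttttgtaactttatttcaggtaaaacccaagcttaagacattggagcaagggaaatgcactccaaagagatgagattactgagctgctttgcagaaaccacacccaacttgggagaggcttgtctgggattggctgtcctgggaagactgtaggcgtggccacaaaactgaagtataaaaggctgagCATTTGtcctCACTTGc
The Fbxw20 and Fbxw28 windows share 205 bases (82%) in a global alignment, and between 49.6% and 55.6% with or between the other windows. They hold 5 and 4 E-boxes, against 3 in the Zp3 and 3 in the Usp17lb window, while 59.9% of the 12345 tested genes with a window have at least 1. TATAAA, on either strand, occurs once in the Usp17lb window and in none of the others, and in 8.02% of the tested windows. A match is not a site of binding. The base composition of genes that rose and fell is not reported here, because fewer than 80% of the protein-coding genes that rose had a window (77.2%).

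Most measured members of the oocyte growth families were higher in knockout GO. The lists below were drawn up with earlier results of these data known, and each is given beside the median log2 fold change of 0.00 over all genes tested. Of the 12893 genes 31.9% were called in either direction, and a share near that is not a result about a list. Where members of a list passed the filter through GO or NGO alone, their number is given, since these had to differ in that direction. Of the zona pellucida glycoprotein genes, all 3 that passed the filter rose. Zp3, a main glycoprotein of the zona, had 2131 and 2177 TPM in knockout GO and 377 and 242 TPM in knockout NGO (2.83 ± 0.33, adjusted p = 9.98e-05). Zp2, its partner in the filaments of the zona, had 4527 and 3928 TPM in GO and 1348 and 709.6 TPM in NGO (2.11 ± 0.28, adjusted p = 0.000213), and Zp1, which cross-links them, had 154 and 163 TPM in GO and 58.6 and 52.6 TPM in NGO (1.5 ± 0.29). The zona genes were thus already abundant at rest, and no GO library overlapped an NGO library. Of 7 oocyte secreted factors, 1 of them through GO alone, 6 rose, with a median of 3.57, led by Oosp1 above. Gdf9, which drives follicle growth and whose promoter drives the Cre, had 750.2 and 734 TPM in GO and 66.9 and 31.7 TPM in NGO (3.98 ± 0.41, adjusted p = 3.86e-05). Bmp15, its partner, had 132 and 98.2 TPM in GO and 7.28 and 1.5 TPM in NGO (4.66 ± 0.59). Bmp6 overlapped between the groups, with 8.64 and 11.2 TPM in GO and 4.21 and 11.3 TPM in NGO. The rise of Oosp2 did not pass without replicate 2 of knockout GO or of knockout NGO (adjusted p = 0.00814 with all libraries).

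Maternal effect genes, whose products the egg needs after fertilisation, rose with them. Of 18 genes of the subcortical maternal complex and the NLRP family, 2 of them through GO alone, 15 rose and none fell, with a median of 3.05. Zar1l, which binds maternal RNA, had 146 and 180.0 TPM in knockout GO and 1.3 and 1.11 TPM in knockout NGO (6.21 ± 0.44, adjusted p = 4.3e-06). Nlrp2, of the NLRP family, had 89.8 and 153 TPM in GO and 0.574 and 0.706 TPM in NGO (6.17 ± 0.51). Both were near 1 TPM at rest. Nlrp5, a core member of the complex, had 1549.6 and 1071 TPM in knockout GO and 307 and 131 TPM in knockout NGO (2.68 ± 0.35, adjusted p = 0.0002). Padi6, needed for the cytoplasmic lattices, had 1590.3 and 1497 TPM in GO and 295 and 126 TPM in NGO (2.99 ± 0.32). Npm2, a histone chaperone, had 2189 and 2319.8 TPM in GO and 242 and 50.6 TPM in NGO (4.33 ± 0.59). In each of these both GO libraries lay above both NGO libraries. The relative of Zar1l, Zar1, had 92.2 and 69.9 TPM in GO and 7.8 and 1.97 TPM in NGO (3.99 ± 0.52). Ooep, also of the complex, was high in both, at 1767 and 1689.7 TPM in GO and 1479 and 1516 TPM in NGO (adjusted p = 0.367), and Nlrp4e overlapped at 11.6 and 0.862 TPM in GO and 4.12 and 0.801 TPM in NGO. Of 12 Obox, oogenesin and Omt2 genes that passed the filter, 3 of them through GO alone, 11 rose with a median of 4.40, led by Oog3 above. Oog2 had 72.9 and 58.9 TPM in GO and 0.256 and 0.299 TPM in NGO (5.70 ± 0.39). Omt2a had 1288 and 1557 TPM in GO and 134 and 152 TPM in NGO (3.30 ± 0.36). Obox5, a homeobox gene of oocytes and early embryos, had 103 and 138 TPM in GO and 1.04 and 1.91 TPM in NGO (5.62 ± 0.62). Of the 22 Oas1, Tcl1 and Fbxw genes, 3 of them through GO alone, 18 rose with a median of 4.39, among them Oas1e at 918 and 1077 TPM in GO and 105 and 28.8 TPM in NGO (4.14 ± 0.47). Its relative Oas1c overlapped, at 215 and 202 TPM in GO and 219.5 and 156 TPM in NGO. Ooep, Nlrp4e and Oas1c thus gave no rise that the test could tell from the spread.

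Other stored or growth-linked transcripts also rose. Ldhb, the lactate dehydrogenase of the oocyte, had 20036 and 20811 TPM in knockout GO and 4809 and 2446 TPM in knockout NGO (2.57 ± 0.23, adjusted p = 2.02e-05). Bcl2l10, a survival protein of the BCL2 family abundant in oocytes, had 668 and 823 TPM in GO and 13.8 and 58.2 TPM in NGO (4.65 ± 0.58). In both genes the NGO replicates lay further apart than the GO replicates, and the rise of Ldhb did not pass by voom. Of 12 DNA methylation genes, 1 of them through NGO alone, 3 rose and 1 fell, a share near that of the 12893 genes. Zfp57, which protects methylation at imprinted loci, had 739 and 599 TPM in GO and 128 and 109.6 TPM in NGO (2.48 ± 0.20). Dnmt1, the maintenance DNA methyltransferase, had 36.5 and 39.7 TPM in GO and 6.97 and 2.32 TPM in NGO (2.93 ± 0.43). Astl, the protease that hardens the zona after fertilisation, had 94.8 and 92.2 TPM in GO and 6.05 and 1.79 TPM in NGO (4.41 ± 0.67), and Btg4, which removes maternal RNA, had 380.4 and 452 TPM in GO and 125 and 83.3 TPM in NGO (2.01 ± 0.35). Both were detected at rest and had no overlap between groups. Of 18 genes of meiotic arrest and maturation, 1 of them through GO alone, 6 rose and 2 fell. Ccnb1, cyclin B1, had 255 and 313 TPM in GO and 104 and 125 TPM in NGO (1.31 ± 0.24). Aurkc, a kinase of the meiotic spindle, had 161 and 164 TPM in GO and 17.1 and 3.42 TPM in NGO (4.20 ± 0.96), and did not pass without knockout NGO replicate 2. Of 14 pluripotency and primordial germ cell genes among those described, 3 of them through GO alone, 7 rose and 1 fell, with a median of 1.4. Dppa5a, a germ cell and embryonic stem cell gene, had 20409.6 and 27429.5 TPM in GO and 7818 and 8524 TPM in NGO (1.54 ± 0.11).

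The largest falls were in genes of several unrelated functions. S100z, a calcium-binding protein (chromosome 13, 95477268 to 95478721), had 18.7 and 23.2 TPM in knockout GO and 462 and 819 TPM in knockout NGO (-4.82 ± 0.48, adjusted p = 3.31e-05). Retreg1, a receptor for autophagy of the endoplasmic reticulum, had 21.5 and 12.2 TPM in GO and 379 and 515 TPM in NGO (-4.68 ± 0.34). Both had their GO libraries far below their NGO libraries, with a difference larger than the spread of the replicates. Enkur, known from cilia and sperm, had 2.05 and 18.7 TPM in GO and 154 and 236 TPM in NGO (-4.63 ± 0.69). Cep112, a centrosomal protein, had 1.12 and 0.35 TPM in GO and 35 and 43.3 TPM in NGO (-4.56 ± 0.39), and Poglut3, an O-glucosyltransferase, 6.4 and 0.931 TPM in GO and 83.7 and 107 TPM in NGO (-4.66 ± 0.59). The mitochondrial glutamate tRNA gene mt-Te, a short gene, had 9.65 and 13.4 TPM in GO and 209 and 415 TPM in NGO (-4.58 ± 0.51). Rbks, Adamdec1, Zfp39, Rab25 and Rcn1 were below 1 TPM in both GO libraries and between 11.5 and 93.9 TPM in NGO. These genes thus passed the filter through NGO alone and had to be lower in GO to some degree. Rbks, a ribokinase, marked both ends of the range in NGO, so its NGO replicates were less even than those of the others.

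Genes of protein synthesis and respiration took a smaller share of the transcriptome in knockout GO. Of 78 cytoplasmic ribosomal protein genes among those described, 1 of them through NGO alone, 60 fell and 2 rose, with a median log2 fold change of -0.94. Rpl26 had 508 and 462 TPM in knockout GO and 1300.2 and 1442 TPM in knockout NGO (-1.5 ± 0.09, adjusted p = 2.54e-06), and Rpl23 had 245 and 207 TPM in GO and 759.6 and 881 TPM in NGO (-1.86 ± 0.13). Their replicates lay close together. Rpl39, which ran against them, had 226 and 279 TPM in GO and 129.9 and 120.0 TPM in NGO (1.00 ± 0.17). Of the 13 protein genes encoded in the mitochondrion, 9 fell and none rose, with a median of -1.23. The complex I subunit gene mt-Nd5 had 494 and 486 TPM in GO and 1618 and 1910.4 TPM in NGO (-1.84 ± 0.16). Cytochrome b, mt-Cytb, had 12169.8 and 10040.5 TPM in GO and 25797 and 32788 TPM in NGO (-1.40 ± 0.16), though its fall did not pass by voom. Of 57 nuclear genes of oxidative phosphorylation, 21 fell and 3 rose, with a median of -0.44. Ndufa6, of complex I, had 306 and 234 TPM in GO and 743 and 898 TPM in NGO (-1.61 ± 0.18). Atp5g1, of the ATP synthase, was one of the 3 that rose, with 331 and 340.1 TPM in GO and 145 and 159.8 TPM in NGO (1.13 ± 0.16). Of 30 ribosome biogenesis genes, 1 of them through GO alone, 9 fell and 2 rose, a share called near that of the 12893 genes. They were led by the nucleolar GTPase gene Gnl3 (-1.48 ± 0.23) and nucleolin, Ncl (-1.32 ± 0.21). Of 32 proteasome genes 8 fell and 3 rose, a share called near that of the 12893 genes. Division of TPM by median-of-ratios size factors, with which the median of the 12893 genes was 0.11, against -0.01 with TPM as deposited, left 46 ribosomal protein genes and 13 nuclear oxidative phosphorylation genes lower. With voom those counts were 38 and 9.

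Genes of meiotic prophase, which mouse oocytes pass around birth, fell in part. Of 32 described, 1 of them through GO alone and 1 through NGO alone, 10 fell and 3 rose. Tex12, of the central element of the synaptonemal complex, had 42.7 and 21.4 TPM in knockout GO and 308 and 502 TPM in knockout NGO (-3.65 ± 0.33, adjusted p = 1.75e-05). Syce1, of the same element, had 349 and 225 TPM in GO and 1061 and 979.9 TPM in NGO (-1.86 ± 0.19). Sycp3, of its axis, fell to 1921 and 1762 TPM in GO, against 3871 and 3614 TPM in NGO (-1.02 ± 0.13). Syce1 and Sycp3 thus stayed abundant in growth. Of the genes that rose, Stra8, the inducer of meiotic entry, had 248 and 239 TPM in GO and 24.3 and 12 TPM in NGO (3.75 ± 1.07, adjusted p = 0.0273), and did not pass without replicate 1 or 2 of GO or replicate 2 of NGO, with a pseudocount of 0.1 or with no filter on low values. Of the piRNA pathway, which silences transposons, 6 of 21 genes fell and 1 rose, a share called near that of the 12893 genes. Gtsf1 had 6789.7 and 5972 TPM in GO and 14509.8 and 14765 TPM in NGO (-1.20 ± 0.11), a fall that did not pass by voom, and Fkbp6 had 45.4 and 58.6 TPM in GO and 395 and 236 TPM in NGO (-2.54 ± 0.30). Among transcription factors of the primordial oocyte, 4 of 12 fell and 3 rose, with the smallest p for Sub1, a transcription coactivator (0.38 ± 0.06), whose rise did not pass with quantile normalization. Foxo3, which holds the reserve at rest, had 106 and 95.3 TPM in GO and 242 and 374 TPM in NGO (-1.57 ± 0.26, adjusted p = 0.00117). Cdkn1b, the cell cycle inhibitor p27 and another restraint on recruitment, had 15.6 and 19.2 TPM in GO and 48.8 and 54.6 TPM in NGO (-1.52 ± 0.36). Both were lower in each GO library than in either NGO library. Tbpl2, the TATA-binding protein of the growing oocyte, rose to 1292 and 1263 TPM in GO, against 295 and 374 TPM in NGO (1.94 ± 0.33). Nobox, which drives growth, overlapped, at 137 and 145 TPM in GO and 129 and 148 TPM in NGO.

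Smaller groups held genes that changed in both directions. The shares called among NuRD, integrated stress response, imprinted and redox genes lay near the 31.9% of the 12893 genes, so their counts are no result about the groups. Of 13 genes of the NuRD complex, 2 rose and 2 fell. Rbbp7, a histone-binding subunit, had 1785 and 1741 TPM in knockout GO and 704 and 620.0 TPM in knockout NGO (1.41 ± 0.18, adjusted p = 0.00015), and the deacetylase gene Hdac2 had 49 and 57 TPM in GO and 126 and 119 TPM in NGO (-1.20 ± 0.27). Their directions were opposite. Of 14 immediate early and tissue dissociation genes, 3 of them through NGO alone and 1 through GO alone, 4 fell and 3 rose. Egr1, an immediate early transcription factor, had 0.0594 and 0.206 TPM in GO and 9.32 and 20.1 TPM in NGO (-3.71 ± 0.60), and Fos had 4.13 and 3.28 TPM in GO and 23.5 and 25.1 TPM in NGO (-2.43 ± 0.57). Both stayed at 4.13 TPM or less in knockout GO. The fall of Fos did not pass with the P10 libraries alone, by voom or without knockout GO replicate 2. Of 14 integrated stress response genes, 1 of them through GO alone, 3 fell and 2 rose, led by Nupr1, a stress-induced chromatin protein, with 20.6 and 5.46 TPM in GO and 230.2 and 286 TPM in NGO (-4.45 ± 0.45). Of 15 imprinted genes, 3 of them through GO alone and 3 through NGO alone, 3 fell and 2 rose. Impact had 343 and 319 TPM in GO and 1125 and 1729.5 TPM in NGO (-2.07 ± 0.22), and Phlda2, a growth-restricting gene of the placenta, had 94.1 and 86.5 TPM in GO and 0.757 and 0.442 TPM in NGO (5.84 ± 0.73). Of 25 glutathione and thiol redox genes, 1 of them through NGO alone, 4 rose and 4 fell, led by the peroxiredoxin gene Prdx1 with 2303 and 2664 TPM in GO and 929.8 and 903 TPM in NGO (1.43 ± 0.12).

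**Figure D2:**
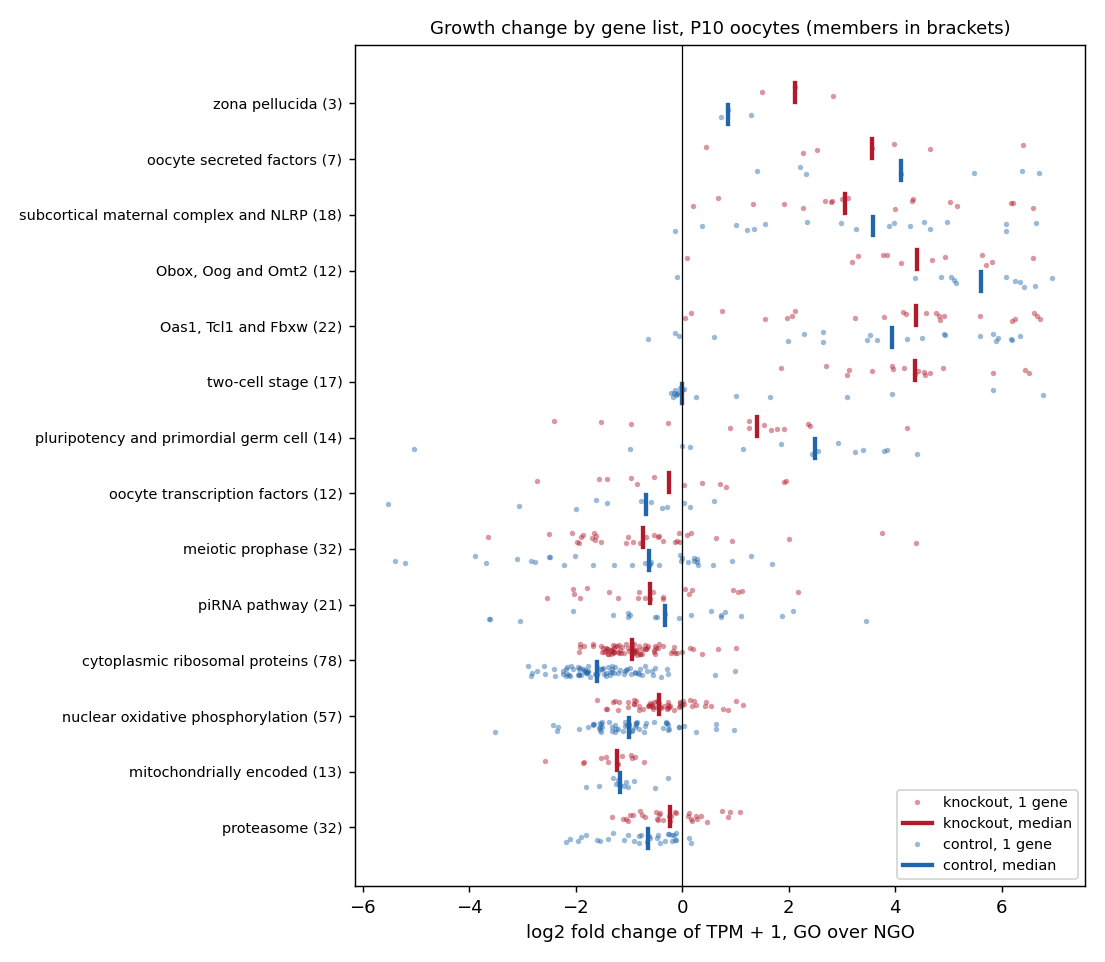
Log2 fold change of GO over NGO for the genes of 14 lists, in knockouts (red, upper row of each list) and controls (blue, lower row), with 1 point per gene and a bar at the median. Growth families sit to the right in both genotypes, two-cell genes to the right in knockouts with a median of 4.38 and at 0.00 in controls, and ribosomal protein genes to the left with medians of -0.94 in knockouts and -1.60 in controls.

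Control GO and NGO went through the same comparison in the same fit, with no library shared between the genotypes. In controls 4968 genes (24.3%) were called, 2257 (11%) higher and 2711 (13.2%) lower in GO, a share of higher calls of 45.4% that became 63.2% with median-of-ratios scaling. Of the 2257 genes that rose in controls, 1057 (46.8%) also rose in knockouts, 34 fell and 1166 were not called. Their median log2 fold change was 1.5 in knockouts and 2.76 in controls, and 83.3% had the same sign. Of the 2711 that fell in controls, 1060 (39.1%) fell in knockouts, 52 rose and 1599 were not called, with medians of -0.84 in knockouts and -1.95 in controls. A gene not called in knockouts was not thereby shown to change differently there. The test of the difference between genotypes, given below, passed for 327 of the 1166 and not for 839. It passed for 390 of the 1599 and not for 1209. A list chosen in one genotype favours large changes there, so the reverse is given too. Of the 2354 genes that rose in knockouts, 44.9% rose in controls, with medians of 2.70 in knockouts and 1.21 in controls. Of the 1826 that fell in knockouts, 58.1% fell in controls, with medians of -1.73 in knockouts and -1.29 in controls. Over the 12893 genes the fold changes of the genotypes correlated with a Pearson r of 0.584 across genes, which are not independent replicates. Of the genes that rose in controls, 540 were not among the 12893, since they reached 1 TPM in fewer than 2 knockout libraries. That choice fixes a rise in controls and low levels in knockouts, so their values only describe them: the median log2 fold change was 0.29 in knockouts and 2.64 in controls, and 182 passed the test of the difference. Dnmt3l, a cofactor of DNA methylation in the growing oocyte, was one, at 0.134 and 0 TPM in knockout GO and 0.0355 and 0.0414 TPM in knockout NGO, against 3.96 and 11.9 TPM in control GO and 0.13 and 0.0478 TPM in control NGO (difference -2.84 ± 0.53, adjusted p = 0.00835), a difference that did not pass with the P10 libraries alone.

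**Figure D3:**
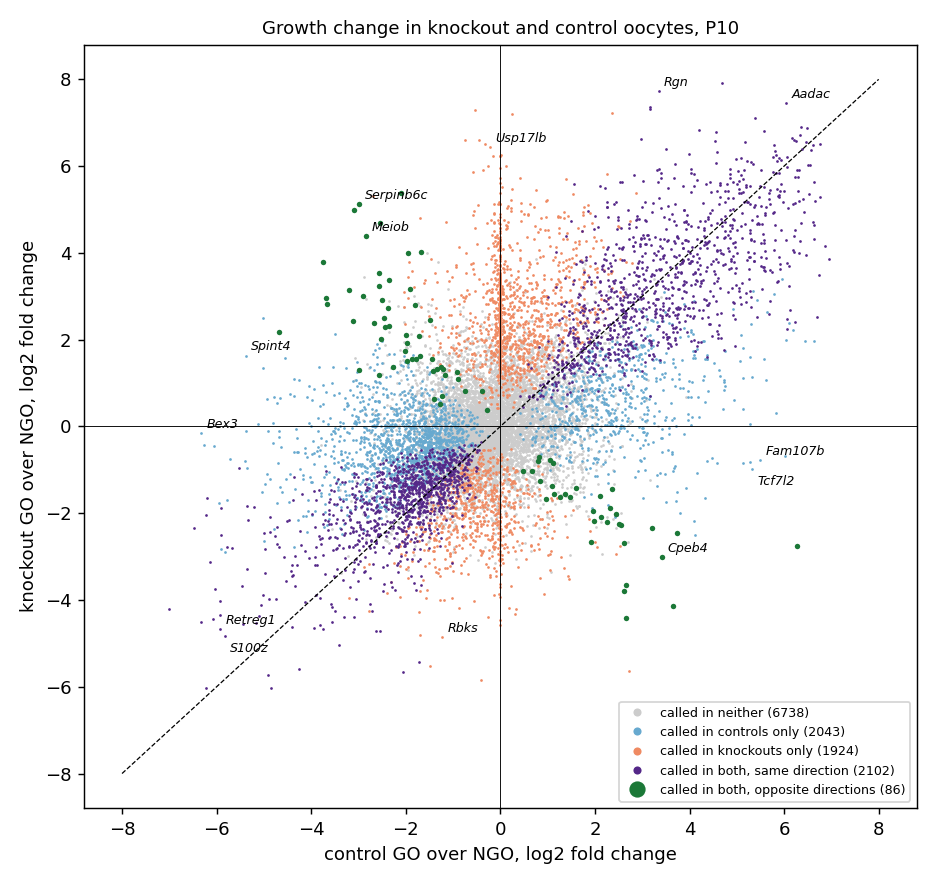
Log2 fold change of GO over NGO in knockouts (vertical axis) and in controls (horizontal axis) for the 12893 genes, 1 point per gene, coloured by the genotype in which it was called, with a dashed line of equal change. Of these genes, 2102 were called in both genotypes in the same direction, 1924 in knockouts only, 2043 in controls only and 86 in opposite directions.

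Whether the growth change itself differed between genotypes was tested as a difference of differences. It passed for 1527 genes (7.46%), of which 990 (4.84%) had the higher log2 fold change in knockouts and 537 (2.62%) the lower one. The direction of the bulk of these differences depends on scaling: 64.8% were higher with TPM as deposited, 52.8% with quantile normalization and 50.2% with median-of-ratios scaling. The median difference over the 12893 genes was 0.01 with that scaling and 0.30 with TPM as deposited. The count rested on single libraries too, at 901 and 900 without control GO replicate 1 or 2, and was 385 with the P10 libraries alone. The higher differences numbered 1493 without knockout NGO replicate 1 and 646 without replicate 2, and the lower ones 347 without control NGO replicate 2. Dppa3, a maternal effect gene and the most abundant transcript of every P10 library, had 94336 and 105478 TPM in knockout GO and 61226 and 52739 TPM in knockout NGO, against 45242 and 46799 TPM in control GO and 58013 and 62507 TPM in control NGO. It rose in knockouts by 0.81 and fell in controls by 0.39 on the log2 scale (adjusted p of the difference 0.000196), but quantile normalization, which sets the top gene equal in all libraries, shows no such change. Of the 18 maternal complex and NLRP genes the difference passed for Nlrp5 and Padi6, and of the 22 Oas1, Tcl1 and Fbxw genes for Oas1d, Tcl1 and Tcl1b1, each with the higher log2 fold change in knockouts. Of the 12893 genes the difference passed for 10.1%, so these counts lay near that share and are no result about the lists. Obox1 and Oosp3 had the lower one in knockouts, and no zona gene differed by the test. Of the 12 largest rises the difference passed for Rgn and Usp17lb, and of the 12 largest falls for none, with adjusted p of 0.0529 or more. Rgn had 14.2 and 32.9 TPM in control GO and 1.21 and 1.25 TPM in control NGO (difference 4.37 ± 0.67, adjusted p = 0.00259).

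Some rises of controls were absent or smaller in knockouts. Tcf7l2, a transcription factor of the Wnt pathway, had 11.6 and 4.77 TPM in knockout GO and 9.49 and 25.7 TPM in knockout NGO, against 71 and 55.3 TPM in control GO and 0.772 and 0.45 TPM in control NGO (difference -6.29 ± 0.81, adjusted p = 0.000882). Fam107b had 28.6 and 8.48 TPM in knockout GO and 32 and 24.1 TPM in knockout NGO, against 128 and 129 TPM in control GO and 2.63 and 1.26 TPM in control NGO (difference -6.28 ± 0.66). In both genes the knockout GO and NGO libraries overlapped, and all 4 lay between the control NGO and control GO libraries. Cpeb4, a regulator of polyadenylation, changed in opposite directions, with 4.31 and 0.339 TPM in knockout GO and 21 and 19.9 TPM in knockout NGO, against 12.2 and 17.8 TPM in control GO and 0.509 and 0.427 TPM in control NGO (difference -6.44 ± 0.88). Psg16, a pregnancy-specific glycoprotein, had 0.0485 and 0.281 TPM in knockout GO and 5.64 and 37.7 TPM in knockout NGO, against 6.26 and 5.56 TPM in control GO and 0.0944 and 0.156 TPM in control NGO (difference -6.41 ± 0.89). Both genes fell in knockouts and rose in controls, though Psg16 passed the filter in knockouts through NGO alone. Oosp3 reached 32.7 and 123 TPM in knockout GO and 18.6 and 5.42 TPM in knockout NGO, against 677 and 799.8 TPM in control GO and 5.2 and 7.12 TPM in control NGO (difference -4.17 ± 0.91), and Obox1 52.8 and 163 TPM in knockout GO and 8.93 and 3.26 TPM in knockout NGO, against 869 and 875 TPM in control GO and 6.27 and 5.87 TPM in control NGO (difference -3.10 ± 0.75). Both thus rose in knockouts, but their GO libraries lay far below control GO. The rise of Oosp3 in knockouts did not pass without replicate 2 of GO or of NGO. Tet3, the oocyte enzyme that oxidises methylcytosine, had 4.44 and 5.02 TPM in knockout GO and 1.96 and 3.36 TPM in knockout NGO, against 16.9 and 12.5 TPM in control GO and 0.473 and 1.46 TPM in control NGO (difference -2.36 ± 0.65, adjusted p = 0.0497). Tfap2c, a transcription factor of germ cells and the early embryo, had 2.79 and 2.85 TPM in knockout GO and 8.3 and 1.25 TPM in knockout NGO, against 9.48 and 11.5 TPM in control GO and 0.106 and 0.0777 TPM in control NGO (difference -3.65 ± 0.95). The differences of Oosp3, Obox1, Tet3 and Tfap2c, and those of Nlrp5, Padi6, Oas1d, Tcl1 and Tcl1b1, each lost their call without at least 1 library. With the P10 libraries alone these differences did not pass either. Those of Obox1, Tet3 and Tfap2c were lost under 10, 11 and 12 of 17 alternatives.

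Some falls of controls were absent or smaller in knockouts. Bex3, of a small X-linked family (X chromosome, 136270253 to 136271978), had 339.5 and 293 TPM in knockout GO and 372 and 329.8 TPM in knockout NGO, against 1.62 and 2.34 TPM in control GO and 164 and 341 TPM in control NGO (difference 6.18 ± 0.42, adjusted p = 6.76e-05). Spint4, a protease inhibitor, had 77.3 and 60.8 TPM in knockout GO and 60 and 7.26 TPM in knockout NGO, against 0 and 0.178 TPM in control GO and 49.7 and 39.8 TPM in control NGO (difference 7.02 ± 1.00). Hesx1, a homeobox repressor, had 9.71 and 13.2 TPM in knockout GO and 7.22 and 1.89 TPM in knockout NGO, against 0.211 and 0.107 TPM in control GO and 51.7 and 25.4 TPM in control NGO (difference 6.35 ± 0.92). In each of these genes control GO was at 2.34 TPM or less and knockout GO at 9.71 TPM or more. Sohlh1, a factor of the primordial oocyte that is normally shut off as growth starts, had 22.5 and 45.2 TPM in knockout GO and 70.2 and 56.4 TPM in knockout NGO, against 1.12 and 0.935 TPM in control GO and 95.2 and 89.2 TPM in control NGO (difference 4.57 ± 0.40, adjusted p = 0.000142). Figla, which switches on the zona genes, had 965 and 753 TPM in knockout GO and 1397 and 1078 TPM in knockout NGO, against 316 and 468 TPM in control GO and 1381 and 1704 TPM in control NGO (difference 1.47 ± 0.31), which did not pass with median-of-ratios scaling. Of the 32 meiotic prophase genes the difference passed for 5 upward and 2 downward, beside 10.1% of the 12893 genes in either direction. Syce1 had 349 and 225 TPM in knockout GO and 1061 and 979.9 TPM in knockout NGO, against 16 and 19.2 TPM in control GO and 708 and 660.4 TPM in control NGO (difference 3.35 ± 0.26, adjusted p = 6.76e-05). Sycp3 fell in controls to 229 and 154 TPM in GO, against 2417 and 2423 TPM in NGO (difference 2.66 ± 0.19), and Smc1b, a meiotic cohesin, differed by 1.48 ± 0.29. Both therefore fell in knockouts by less than in controls. Tex12 and Sycp2 went the other way, with differences of -1.97 ± 0.46 and -2.35 ± 0.48. Pmaip1, the cell death gene Noxa, had 89.5 and 95.7 TPM in knockout GO and 77.4 and 29.6 TPM in knockout NGO, against 0.482 and 0.784 TPM in control GO and 20.3 and 33.1 TPM in control NGO (difference 4.98 ± 0.64). Cat, catalase, differed by 5.33 ± 0.92, and the imprinted gene Mcts2 by 5.47 ± 0.94. With the P10 libraries alone the differences of Mcts2, Cat, Smc1b, Sycp2, Figla and Tex12 did not pass. That of Tex12 was also lost by voom and without any 1 of 5 libraries, and those of Figla and Smc1b by voom. Cyc1, cytochrome c1, was the first by p of 15 nuclear oxidative phosphorylation genes with the higher log2 fold change in knockouts (difference 3.07 ± 0.48, which did not pass with the P10 libraries alone), against 5 with median-of-ratios scaling. Among ribosomal protein genes there were 21 such genes, and 3 with that scaling. The small nucleolar RNA Snord73a was above 0 in only 3 of the 8 P10 libraries, at 6.8 TPM in knockout GO replicate 2 and 87.7 and 27.3 TPM in control NGO (fitted difference 7.13 ± 1.69, adjusted p = 0.0256), and did not pass when any 1 of 5 libraries was left out.

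**Figure D4:**
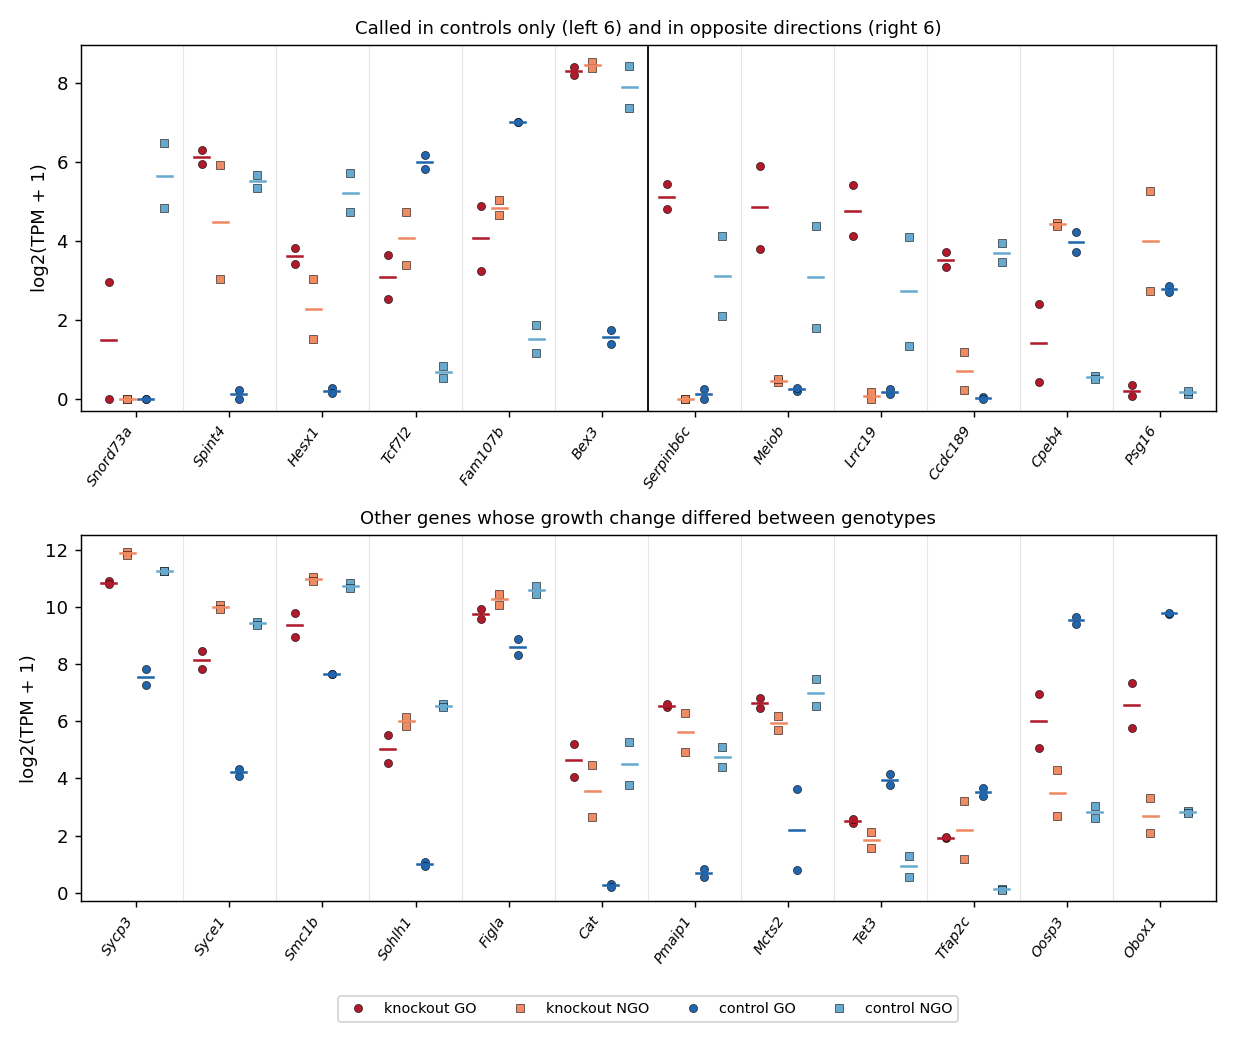
Log2(TPM + 1) in knockout GO (red circles), knockout NGO (orange squares), control GO (dark blue circles) and control NGO (light blue squares), 1 point per library with a bar at the mean, for genes whose growth change differed between genotypes. The upper panel shows genes called in controls only (left) and in opposite directions (right), and the lower panel members of the gene lists, such as Sohlh1 with control GO near 1 TPM and knockout GO at 22.5 and 45.2 TPM.

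A group of genes rose with growth in knockouts and mostly did not in controls. These were genes known from the two-cell embryo, where the embryonic genome is first switched on. Of 25 listed, 17 passed the filter, 6 of them through GO alone, and all 17 rose in knockouts (Zscan4d not without knockout NGO replicate 2), against 4 in controls (Arg2, Sp110, Tcstv1 and Tcstv3). The median log2 fold change was 4.38 in knockouts and 0.00 in controls, and the difference passed for 11. Of all 12893 genes, 2308 rose in knockouts and 1717 in controls, and the difference passed for 1304 (10.1%). The filter asked for a level in knockouts and not in controls, which favours genes high in knockouts. The counts set beside controls thus only describe the list. Usp17lb, a deubiquitinase (chromosome 7, 104840257 to 104842603), had 115 and 147 TPM in knockout GO and 0.34 and 0.714 TPM in knockout NGO, against 0.0843 and 0 TPM in control GO and 0 and 0.458 TPM in control NGO (difference 6.65 ± 0.49, adjusted p = 6.76e-05). Its relative Usp17la had 21.8 and 28.2 TPM in knockout GO and 0 and 0.0466 TPM in knockout NGO, and was listed at 0 in all 4 control libraries. Zfp352, a zinc finger gene, had 19.8 and 46.6 TPM in knockout GO and 0.0466 and 0.0544 TPM in knockout NGO, against 0 and 0 TPM in control GO and 0 and 0.188 TPM in control NGO (difference 5.03 ± 0.53). Zscan4f, of a family that marks the two-cell state, had 43.2 and 82.6 TPM in knockout GO and 3.41 and 0.948 TPM in knockout NGO, against 0.0672 and 0.205 TPM in control GO and 0.265 and 0.146 TPM in control NGO (difference 4.46 ± 0.62). Zscan4f was thus detected in both knockout NGO libraries, at levels far below those of knockout GO. Gm8300 reached 209 and 333 TPM in knockout GO and 38.5 and 6.41 TPM in knockout NGO, against 0.211 and 0.286 TPM in control GO and 0.277 and 0.458 TPM in control NGO. Its difference did not pass with a pseudocount of 0.1, with the P10 libraries alone, by voom or with a replicate block. It was also lost without control GO replicate 1 or 2. Tcstv3 and Tcstv1, though known from the same stage, rose in controls as well, with 275 and 298 TPM of Tcstv3 in control GO and 1.83 and 1.47 TPM in control NGO. Zscan4d and Zscan4c did not differ by the test (adjusted p of the difference 0.257 and 0.106), where control GO replicate 2 had 15.1 and 5.59 TPM. The Usp17l and Zscan4 genes are near copies within their families, so the split of reads among members is uncertain. The difference passed for 4 of the 17 with the P10 libraries alone and for 5 of the 12 left in either fit without 1 knockout GO library, and for 7 to 11 under the other alternatives.

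**Figure D5:**
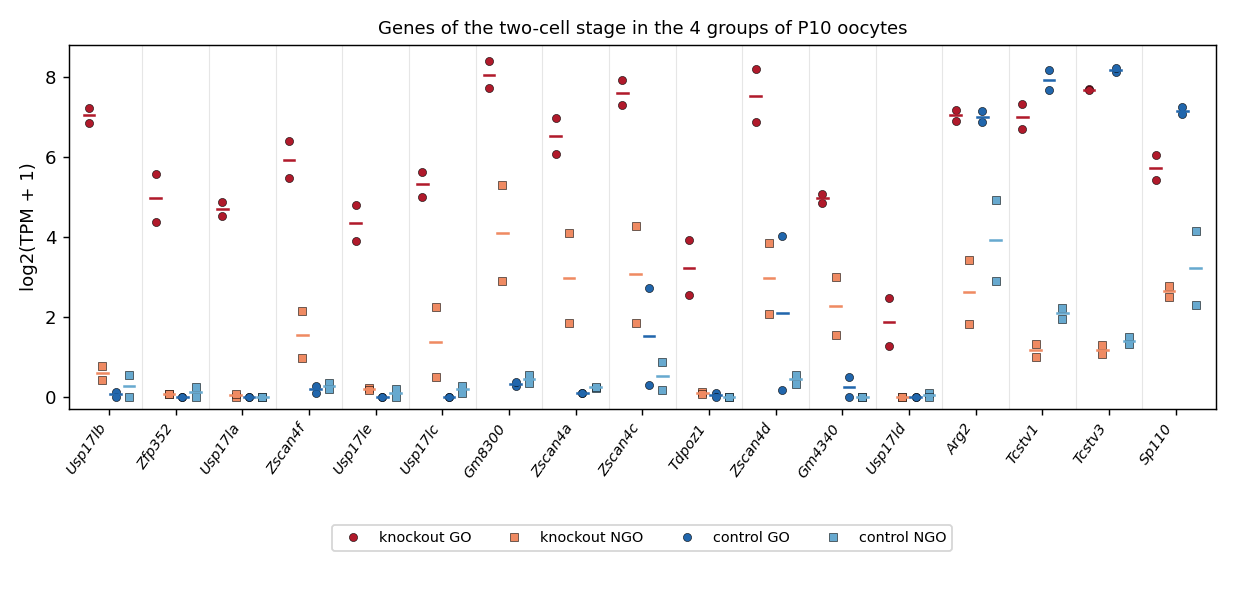
Log2(TPM + 1) of the 17 two-cell genes that passed the filter in knockout GO, knockout NGO, control GO and control NGO, 1 point per library with a bar at the mean, ordered by the difference between genotypes. For the first 13 genes both knockout GO libraries lie above the libraries of every other group, and for Arg2, Tcstv1, Tcstv3 and Sp110 they overlap with or lie below control GO.

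Other genes were called in knockouts and not in controls, and their difference passed. Ighe, a constant segment of the immunoglobulin heavy chain locus, had 65 and 80.5 TPM in knockout GO and 0.134 and 0.156 TPM in knockout NGO, against 0 and 0 TPM in control GO and 0 and 0.451 TPM in control NGO. Igkv4-63, a variable segment of the kappa locus, had 86.7 and 86.7 TPM in knockout GO and 0 and 0.352 TPM in knockout NGO, and was listed at 0 in all 4 control libraries. Markers of blood and immune cells summed to at most 2.07 TPM in knockout GO, with Ptprc and Cd52 at 0. Reg1, a secreted lectin of the pancreas, had 53.9 and 72 TPM in knockout GO and 0.117 and 0.274 TPM in knockout NGO, against 0.146 and 0.296 TPM in control GO and 0.143 and 0.316 TPM in control NGO (difference 5.74 ± 0.80). H4c8, a histone H4 gene with near copies, had 36.8 and 29.9 TPM in knockout GO and was at 0 in both knockout NGO libraries, against 13.4 and 13.4 TPM in control GO and 18.7 and 19.2 TPM in control NGO (fitted difference 5.56 ± 0.89). It was thus above 1 TPM in all control libraries. Zfp971, a zinc finger gene, had 50.9 and 16.7 TPM in knockout GO and 2.47 and 0.404 TPM in knockout NGO (difference 5.72 ± 0.97), a difference that did not pass with the P10 libraries alone. A further set changed in opposite directions. Serpinb6c, a serpin, had 42.1 and 26.9 TPM in knockout GO and was at 0 in both knockout NGO libraries, against 0.189 and 0 TPM in control GO and 16.5 and 3.29 TPM in control NGO (fitted difference 8.11 ± 1.05, which depends on the pseudocount as does any change against libraries at 0, adjusted p = 0.000944). Meiob, a protein of meiotic recombination, had 58.9 and 12.9 TPM in knockout GO and 0.353 and 0.413 TPM in knockout NGO, against 0.146 and 0.223 TPM in control GO and 19.8 and 2.46 TPM in control NGO (difference 7.23 ± 1.11). Lrrc19 and Ccdc189 were likewise higher in knockout GO than in knockout NGO and lower in control GO than in control NGO, with differences of 7.22 ± 1.12 and 6.49 ± 0.69. In these 4 the replicates of at least 1 group lay several-fold apart, but the GO and NGO libraries of each genotype did not overlap. Ighe, Igkv4-63, Reg1, H4c8, Serpinb6c and Meiob were below 1 TPM in both knockout NGO libraries. Among knockouts they thus passed the filter through GO alone and had to be higher there to some degree. With the 4 knockout libraries alone, the knockout changes of Zfp971, Ccdc189, Cpeb4 and Psg16 did not pass. Nor did those of Fos, Cdkn1b, Hdac2, Rpl39, Sub1, Oosp3, Sycp2, Oas1d, Sohlh1, Tie1 and Nr0b1.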

How the data were processed

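The authors deposited 1 table of TPM per gene for all 16 oocyte libraries of the series, and the 8 from P10 are reported. Per the submitters' processing notes, Trimmomatic 0.39, STAR 2.5.4b, SAMtools 1.9 and featureCounts 2.0.1 were used with GRCm38. How TPM was computed, and whether strand was used, is not given in the sources used here. Genes at 1 TPM or more in at least 2 of 16 libraries were tested with limma 3.58.1 (R 4.3.3) on log2(TPM + 1), with 1 mean for each of 8 groups, a trended prior and Benjamini-Hochberg adjustment over 20470 genes at 0.05. These values understate fold changes of low genes. The fit was tested on simulated data with known changes, where its estimates lay close to these but most did not pass the threshold. Far fewer genes changed there than were called in the data, so the share that passed does not give the power of the tests reported. Depth was recovered from the steps of low values with GENCODE M21 gene lengths, and 98.7% to 99.2% of low P10 values fell within 0.05 of a whole read. Promoters and locations come from RefSeq and GENCODE. Alternatives were another pseudocount, other filters, P10 or knockout libraries alone, quantile and median-of-ratios scaling, voom on recovered reads, a replicate block and leaving out each P10 library.

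Named genes were the 12 largest rises and 12 largest falls with adjusted p under 0.05, a mean of 5 TPM or more in GO or NGO, no overlap of libraries and a symbol other than a predicted model. For the difference they were the 6 largest called in controls only, in knockouts only, and in both or neither. Members of gene lists could also be named, those with the smallest p first. One gene that the rule selects is not reported here. The members and lists were chosen with earlier results of these data known.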

Additional observations from a re-analysis of the deposited data

Results flagged for a closer look

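The genes below stood out because the change from NGO to GO in knockouts and the same change in controls differed by the test of the difference itself, which passed for 1527 genes. Values are the knockout log2 fold change minus the control log2 fold change.

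Genes of the two-cell embryo had the larger rise in knockouts, with a difference of 6.65 for Usp17lb, 5.03 for Zfp352, 4.66 for Usp17la, 4.46 for Zscan4f and 4.08 for Gm8300. That of Gm8300 was lost under 6 of 17 alternatives, and that of Zscan4f with the P10 libraries alone. Among the largest differences were also 8.11 for Serpinb6c, 7.23 for Meiob, 7.22 for Lrrc19, 6.49 for Ccdc189, 6.27 for Ighe, 6.24 for Igkv4-63, 5.74 for Reg1, 5.72 for Zfp971 and 5.56 for H4c8, all called higher in knockout GO than in knockout NGO. Rgn, which rose in both genotypes, differed by 4.37.

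Among genes called lower in control GO, the difference was 7.13 for Snord73a, 7.02 for Spint4, 6.35 for Hesx1, 6.18 for Bex3, 5.47 for Mcts2, 5.33 for Cat and 4.98 for Pmaip1. It was 4.57 for Sohlh1, 1.47 for Figla and 0.66 for Sub1 among oocyte transcription factors, and 1.91 for Tbpl2, which rose in knockouts. Meiotic genes gave 3.35 for Syce1, 2.66 for Sycp3 and 1.48 for Smc1b, against -2.35 for Sycp2 and -1.97 for Tex12. Housekeeping genes gave 3.07 for Cyc1, 1.19 for Atp5g1, 0.84 for Prdx1 and 0.60 for Rpl26. With median-of-ratios scaling the differences of Atp5g1, Prdx1, Rpl26, Sub1, Figla and Tbpl2 did not pass, nor by voom those of Prdx1, Rpl26, Sub1, Figla, Smc1b and Tex12. Those of Tbpl2 and Tex12 were each lost without any 1 of 5 libraries.

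Among maternal genes the difference was 2.85 for Tcl1b1, 2.31 for Nlrp5, 2.03 for Oas1d, 1.98 for Padi6, 1.52 for Tcl1 and 1.20 for Dppa3. The rise was smaller in knockouts, or turned to a fall, for Cpeb4 (-6.44), Psg16 (-6.41), Tcf7l2 (-6.29), Fam107b (-6.28), Oosp3 (-4.17), Tfap2c (-3.65), Obox1 (-3.10), Dnmt3l (-2.84), Tet3 (-2.36) and Dppa5a (-0.90). That of Dppa5a did not pass with quantile normalization, by voom or with the P10 libraries alone, nor that of Dnmt3l with the P10 libraries alone. Apart from Dppa3, the maternal genes named here and Oosp3, Tfap2c, Obox1 and Tet3 lost their difference without at least 1 library. They lost it with the P10 libraries alone as well.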

How the results depend on the processing

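The 12 largest rises and the 12 largest falls kept their calls under every alternative that could test them. Some of these genes passed the filter through GO or NGO alone, so they had to differ to some degree. Of the 18 genes named for the largest differences, 16 also kept their calls, the exceptions being Snord73a and Zfp971. The count of 4180 genes called in knockouts was 2639 with the P10 libraries alone and 1637 with the 4 knockout libraries alone, fits with fewer libraries behind the spread, and 3285 to 4349 when 1 library was left out. The 1527 differences became 385 with the P10 libraries alone, 900 to 2168 when 1 library was left out and 942 with a replicate block. Of control growth genes, 2117 were called in knockouts in the same direction, 1261 with the P10 libraries alone and 1726 to 2115 when 1 library was left out. Dppa3 lost its difference under quantile normalization (0, adjusted p = 1), by construction. The labels do not say whether replicate numbers pair GO with NGO libraries. Across genes, deviations of same-numbered libraries correlated at 0.05 in knockouts and 0.04 in controls. With 2 libraries a group these values cannot decide whether libraries were paired. The replicate block lowered the knockout count to 3642. A library left alone in its group was assumed to vary like the others. With 2 libraries a group, and genes near 1 TPM resting on few reads, smaller changes were not detectable.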
